A study of Mus musculus with 6 samples.

Results

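The genes described here are 9 leukocyte adhesion molecules and integrin chains of the mouse liver: Icam1, Icam2, Vcam1, Sele, Selp, Itgb2, Itgam, Itgal and Itgb1. They were found by gene symbol on an Affymetrix U74Av2 array, on which 12 of 12422 probe sets other than controls report them, 3 for Vcam1, 2 for Itgb1 and 1 for each of the other 7 genes. A probe set is a group of short oligonucleotides made to report a transcript, and its signal is given on a linear scale. Liver RNA came from 6 male mice, wild-type C57BL/6J animals of 8 to 10 weeks of age, with 1 mouse per array. In 3 of them the common bile duct had been tied and cut 1 day earlier (bile duct ligation, BDL), which stops the flow of bile, and the other 3 had a like laparotomy without ligation (sham). Methoxyflurane anaesthesia is given for the ligation, and the mice are numbered 1, 12 and 3 in the BDL group and 1, 2 and 3 in the sham group. The comparison asked how the levels of these transcripts in BDL livers differed from those in sham livers.

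Leukocytes leave the blood in steps: selectins on activated endothelium and platelets slow them, and integrins on the leukocyte then bind immunoglobulin-type ligands on endothelium or tissue cells and hold them. The beta-2 integrins pair the Itgb2 chain with Itgal (LFA-1) or with Itgam (Mac-1); both bind the product of Icam1, and LFA-1 also binds that of Icam2. The integrin VLA-4, which holds the Itgb1 chain, binds that of Vcam1. In liver sinusoids selectins are known to matter less than elsewhere, and in mice with blocked bile flow ICAM-1 is known to take part in the attack of neutrophils on hepatocytes.

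The arrays had a common overall scale. The 2% trimmed mean signal was 1501 on each array, and the median signal lay between 497 and 525 in BDL and between 431 and 627 in sham mice. Dim probe sets were brighter on sham replicate 1, where the 10th percentile of the signals was 135, than on the other 5 arrays, where it was 33.6 to 62.2. Signals lower than 152.7, the 25th percentile over all arrays and called the floor here, were raised to it before taking log2, and a probe set was tested only where at least 3 of 6 arrays exceeded it. The hepatocyte transcript Alb, a marker of the labelled tissue, gave 147870 to 199675 in BDL livers, against 125084 to 170913 in sham livers. The labels name no batch, and the number of arrays limits the precision.

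Of the 12 member probe sets, 9 were tested and 3, those of Icam2, Sele and Selp, were not, since only 1 of 6 arrays exceeded the floor for each. None of the 9 passed an adjusted p of 0.05 with limma over the 9542 probe sets tested, of which 0 passed (0%, with a lowest adjusted p of 0.667). Icam1 had the largest difference among the 9 and had a mean of log2 values 2.58-fold higher in BDL, followed by 1 of the 3 Vcam1 probe sets and Itgal, whereas the log2 differences of Itgb2 and Itgam were -0.10 and -0.05. At an unadjusted p under 0.05 stood 1 of 9, higher in BDL, beside 5.78% of all tested probe sets in either direction and 3.4% in that direction. The groups were fully apart for 1 of 9, an Itgb1 probe set higher in BDL, beside 10.6% of all in either direction and 6.32% in that direction. Either count of 1 is near what these shares give for 9 probe sets. Differences were positive for 6 of 9 probe sets, beside 48.8% of all, with a median of 0.16 beside -0.01 over all tested. The member median lay between 0.13 and 0.53 leaving out 1 array. It was 0.53 without BDL replicate 1 and 0.46 without sham replicate 1, each over 7 tested probe sets. Without BDL replicate 12 it was 0.41, over 8. These medians rest on fewer members than the 9, so they are not like for like with 0.16.

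**Figure D1:**
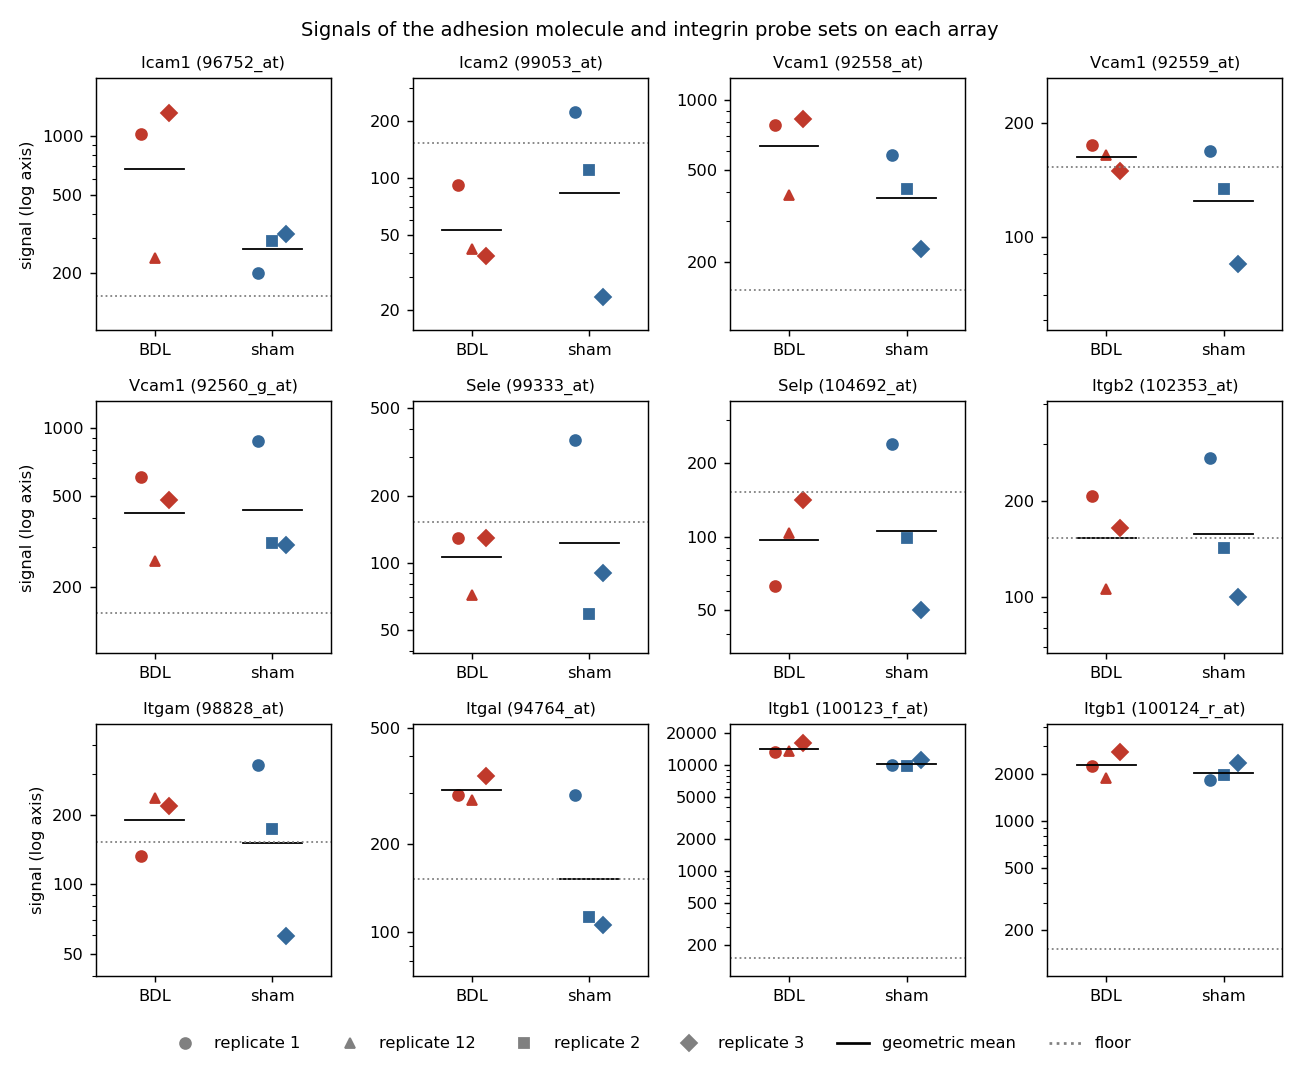
Signal of each of the 12 probe sets (log axis) on the 3 BDL arrays (left, red) and the 3 sham arrays (right, blue), with marker shapes for replicate numbers, black lines at the geometric mean of the signals as deposited and a dotted line at the floor of 152.7. Icam1 is high on BDL replicates 1 and 3 only, and sham replicate 1 is the highest array for 6 of the 12 probe sets.

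Icam1 encodes ICAM-1, the ligand of the beta-2 integrins on endothelium and, in inflamed liver, on hepatocytes. Its signals were 1014, 237 and 1304 in BDL replicates 1, 12 and 3, against 200, 290 and 315 in sham replicates 1, 2 and 3. Replicates 1 and 3 of the BDL group lay above all sham mice, while BDL replicate 12 lay below 2 of the 3 sham mice, so the groups overlapped. The mean was 851 ± 551 in BDL and 268 ± 60.2 in sham livers (SD, n = 3 each), with the lower of BDL replicates 1 and 3 at 4.28 times BDL replicate 12. The log2 difference was 1.37 (SE 0.60, 95% interval 0.00 to 2.73), with an unadjusted p of 0.0496 and an adjusted p of 0.832 from limma. By size this difference was number 68 from the top of the 9542 tested, and by unadjusted p it was number 548. Single arrays moved its size: it was 2.12 (SE 0.36) without BDL replicate 12 and 0.89 (SE 0.61) without BDL replicate 3, with limma adjusted p of 0.602 and 0.999. In bulk tissue a change in the number of cells that hold a transcript and a change in RNA per cell cannot be told apart.

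The sequence before the Icam1 start is shown because Icam1 had the largest difference of the set and its promoter is known to hold NF-kB sites, through which TNF and IL-1 act; that of Sele, another endothelial gene known to respond to these cytokines, is shown beside it because its signal was under the floor on 5 of 6 arrays. RefSeq promoter sequences of build GRCm38.p6 were matched by symbol for 5 of the 9 genes (Icam1, Sele, Selp, Itgam and Itgb1) and were not matched for Icam2, Vcam1, Itgb2 and Itgal. The 250 bases before the annotated start are printed 5′ to 3′ on the plus strand, chr9:21015690-21015939 for Icam1 and chr1:164047984-164048233 for Sele. The Sele window lies inside the span annotated for that gene, chr1:164039614-164058487, so the start used is not the outermost of the gene. Capitals mark matches of GGNNNTTCC, a short form of the NF-kB site read on both strands, and of TATAAA.
Icam1: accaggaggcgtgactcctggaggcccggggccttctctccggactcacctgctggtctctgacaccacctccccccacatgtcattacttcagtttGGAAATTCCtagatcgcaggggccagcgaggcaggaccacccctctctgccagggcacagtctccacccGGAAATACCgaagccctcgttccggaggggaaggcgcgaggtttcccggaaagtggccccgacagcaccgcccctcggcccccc
Sele: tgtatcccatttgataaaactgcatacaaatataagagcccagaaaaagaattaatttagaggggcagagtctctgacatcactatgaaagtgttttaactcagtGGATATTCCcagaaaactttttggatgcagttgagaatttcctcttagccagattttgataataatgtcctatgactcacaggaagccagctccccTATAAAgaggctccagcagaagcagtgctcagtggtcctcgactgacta
Icam1 held 2 matches of GGNNNTTCC, GGAAATTCC at 153 to 145 bases before the start, which matches on both strands, and GGAAATACC, a match on the minus strand, at 84 to 76 bases before it. Sele held 1 match, GGATATTCC at 145 to 137 bases before the start, and a TATAAA at 49 to 44 bases before it. Selp and Itgb1 held 1 match of GGNNNTTCC each, and Itgam held no match in this window. Of 32851 RefSeq promoter windows of the same length, 15.7% held GGNNNTTCC and 12.4% TATAAA. These matches describe letters and not bound sites.

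Vcam1 encodes VCAM-1, the endothelial ligand of VLA-4 on lymphocytes and monocytes, and its 3 probe sets did not give alike values. Probe set 92558_at had signals of 783, 391 and 825 in BDL replicates 1, 12 and 3, against 578, 413 and 228 in sham replicates 1, 2 and 3. As for Icam1, BDL replicates 1 and 3 were the highest arrays and BDL replicate 12 lay among the sham mice, so that the groups overlapped. The mean was 666 ± 240 in BDL and 406 ± 175 in sham livers (SD, n = 3 each), and the log2 difference was 0.74 (SE 0.44, 95% interval -0.27 to 1.74, limma adjusted p = 0.832). Without sham replicate 3 the difference was 0.37, and without BDL replicate 12 it was 1.08, with groups apart.

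The other Vcam1 probe sets share an accession, U12884, and 92560_g_at carries the suffix g, which Affymetrix gave to sets whose probes are common to a group of transcripts. Probe set 92560_g_at had signals of 605, 260 and 482 in BDL and 870, 310 and 306 in sham replicates 1, 2 and 3. Sham replicate 1 was its highest array and BDL replicate 12 its lowest, and the log2 difference was -0.04 (SE 0.50, 95% interval -1.17 to 1.08). That sign was set by single arrays: leaving out BDL replicate 12 gave 0.31 and leaving out sham replicate 1 gave 0.46. Probe set 92559_at had its highest signal little above the floor, at 175, 165 and 149 in BDL and 169, 134 and 84.7 in sham mice, and differed by 0.05 (SE 0.27).

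Icam2 encodes a ligand of LFA-1 that resting endothelium carries. Its signals were 91.6, 42.2 and 38.6 in BDL and 224, 110 and 23.5 in sham replicates 1, 2 and 3, so that only sham replicate 1 exceeded the floor. The endothelial selectins had the same pattern. Sele, which encodes the cytokine-induced E-selectin, had signals of 129, 71.9 and 130 in BDL and 355, 58.6 and 89.8 in sham mice. Selp, which encodes the P-selectin stored by endothelium and platelets, had signals of 62.9, 104 and 141 in BDL and 239, 98.6 and 50 in sham mice. For each of these 3 genes all BDL signals were at or under the floor, and no fold is given. No detection calls were used here, so whether these transcripts were absent is not known.

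Sham replicate 1 was the highest of the 6 arrays for 6 of the 12 member probe sets, namely Icam2, Sele, Selp, Itgb2, Itgam and Vcam1 92560_g_at. It was the highest for 42.3% of all 12422 probe sets and for 73.8% of the 2880 that were not tested. Of 9 platelet markers 4 were on the array and 3 tested, and these 3 had a mean log2 deviation from their own mean of 1.24 on sham replicate 1. On the other 5 arrays it was -0.67 to 0.27. The summed signal of all 4 was 626 to 815 in BDL and 411 to 2114 in sham livers. Their part in the Selp signal of that array was not tested.

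**Figure D2:**
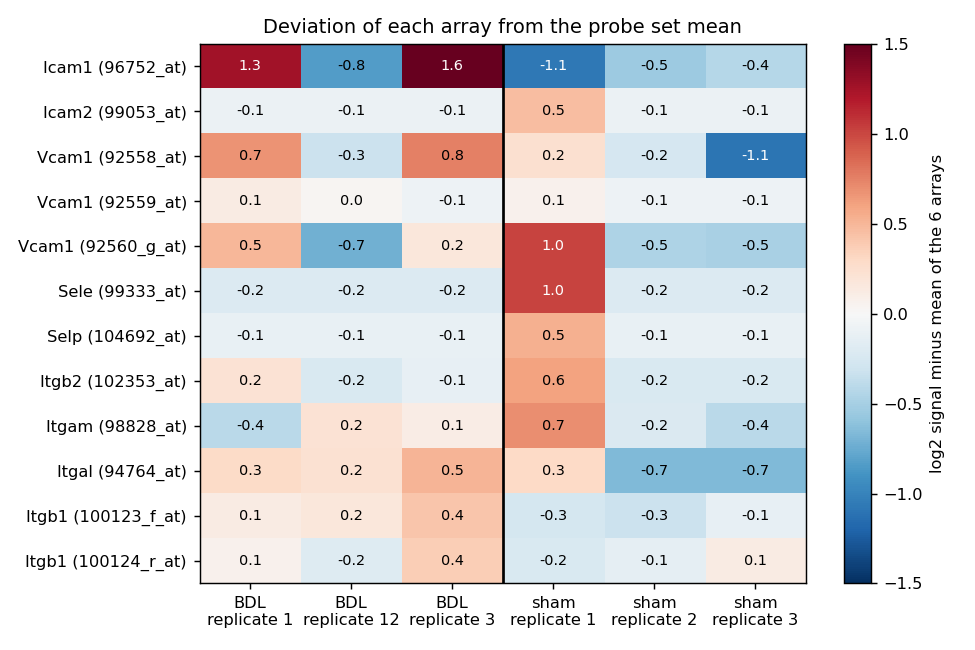
Log2 signal of each probe set, floored at 152.7, on each array minus its mean over the 6 arrays, with the BDL arrays left of the line and the sham arrays right of it. Icam1 and Vcam1 92558_at are raised on BDL replicates 1 and 3 but not on BDL replicate 12, and the dim probe sets are raised on sham replicate 1.

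Among the beta-2 integrin chains of leukocytes, Itgal, the alpha chain of LFA-1, had the largest difference. Its signals were 294, 283 and 343 in BDL, against 296, 113 and 106 in sham replicates 1, 2 and 3. The BDL mice lay close together and above sham replicates 2 and 3, both of which were under the floor, but sham replicate 1 lay among them. The mean was 307 ± 31.8 in BDL and 172 ± 107 in sham livers (SD, n = 3 each), and the log2 difference, understated by the floor, was 0.68 (SE 0.34, 95% interval -0.10 to 1.47, limma adjusted p = 0.832). Without sham replicate 1 it was 1.00 (SE 0.28, limma adjusted p = 0.815), with groups apart. Both sham values left were then tied at the floor, and the probe set passed the filter through its BDL arrays alone. That separation and that SE therefore do not measure the spread of the sham mice. The groups were also apart after quantile normalization, with a difference of 0.95 (SE 0.26, limma adjusted p = 0.712). The same floor was used there, under which sham replicates 2 and 3 lay as deposited. That SE too may hold little of the spread of the sham mice.

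Itgb2, the beta chain that LFA-1 and Mac-1 share, had signals of 207, 106 and 164 in BDL and 272, 142 and 100 in sham replicates 1, 2 and 3. The groups overlapped over their whole range, and the log2 difference was -0.10 (SE 0.34, 95% interval -0.86 to 0.67). Itgam, the alpha chain of Mac-1 on neutrophils and macrophages, had signals of 133, 235 and 218 in BDL and 329, 174 and 59.8 in sham mice, the widest range of the beta-2 chains within the sham group. Its log2 difference was -0.05 (SE 0.37, 95% interval -0.90 to 0.80), and it was 0.29 without sham replicate 1. The intervals of Itgb2 and Itgam hold changes from 1.81-fold lower to 1.59-fold higher and from 1.87-fold lower to 1.74-fold higher in BDL. Itgb2 exceeded the floor on 3 and Itgam on 4 of the 6 arrays, and the other signals were raised to it. With the floor at the 10th percentile the SEs were 0.46 and 0.62, so the intervals given here are too narrow for the signals as deposited.

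Itgb1, the beta chain of VLA-4 and of many receptors for matrix on hepatocytes and other cells, was the only member whose groups were apart as reported. Probe set 100123_f_at had signals of 13335, 13713 and 16292 in BDL and 10151, 9804 and 11201 in sham replicates 1, 2 and 3. Every BDL mouse lay above every sham mouse, and the spread within each group was small, with means of 14447 ± 1609 in BDL and 10385 ± 728 in sham livers (SD, n = 3 each). The log2 difference was 0.47, or 1.39-fold (SE 0.27, 95% interval -0.15 to 1.09, limma adjusted p = 0.832), and its moderated SE draws on the spread of all probe sets. Over 15 other settings this difference lay between 0.38 and 0.54. Its suffix f marks probes that can match several members of a sequence family.

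The other Itgb1 probe set, 100124_r_at, was made from the same accession, X15202, under relaxed probe rules. Its signals were 2259, 1882 and 2773 in BDL and 1839, 1958 and 2353 in sham mice. The groups overlapped, and the log2 difference was 0.16 (SE 0.29, 95% interval -0.51 to 0.83). Leaving out BDL replicate 3 took it to 0.0165, and leaving out BDL replicate 12 to 0.30. BDL replicate 3 was the highest array for both Itgb1 probe sets.

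**Figure D3:**
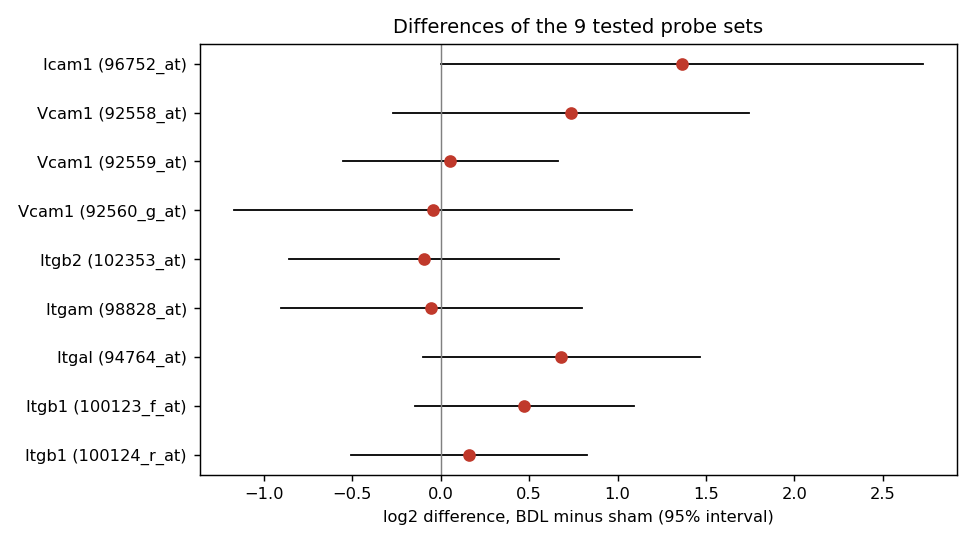
Log2 difference, BDL minus sham, with limma's 95% interval for the 9 tested probe sets, ligands above integrin chains. The Icam1 interval reaches from 0.00 to 2.73 and the other 8 intervals span 0.

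BDL replicate 12 was the lowest of the BDL arrays for 7 of the 12 member probe sets, beside 35.8% of all probe sets. Of 16 Kupffer cell and macrophage markers 14 were on the array and 12 tested, and 9 of the 12 were lowest of the BDL arrays on replicate 12, while Cd68 and Ctss were highest there. Their mean log2 deviation was 0.59, -0.25 and 0.63 on BDL replicates 1, 12 and 3 and 0.11, -0.25 and -0.82 on sham replicates 1, 2 and 3. Their summed signal was 11826 to 18940 in BDL and 7357 to 12660 in sham livers, with 0 of them at or under the floor on all arrays. The mean deviation of neutrophil markers was also lowest of the BDL arrays on replicate 12, at 0.12, -0.20 and 0.34 on BDL replicates 1, 12 and 3, and that of cholangiocyte markers was 0.09, -0.30 and 0.25. Liver endothelial markers, 13 of 16 on the array, had a mean deviation of 0.29, 0.12 and 0.12 on the BDL and -0.37, 0.41 and -0.56 on the sham arrays, at summed signals of 9578 to 11535 and 5830 to 11324. The part of these cells in the Icam1 and Vcam1 signals was not tested.

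The genes whose log2 signals followed Icam1 most closely over the 6 arrays, among 8489 named probe sets, were Srxn1 (Pearson r = 0.99), Apbb1ip (0.99) and Tgfa (0.98). Srxn1 encodes the antioxidant enzyme sulfiredoxin, and its signals were 5045, 787 and 5465 in BDL and 692, 1363 and 1141 in sham replicates 1, 2 and 3. Apbb1ip encodes RIAM, an adaptor that activates integrins, and had 508, 150 and 558 in BDL and 164, 161 and 192 in sham mice. Both showed the order of Icam1 in the BDL group, with replicate 12 far below replicates 1 and 3. Those nearest to Itgb2 were Galm (r = 1.00), Pstpip1 (0.99) and Zfp932 (0.99), and they exceeded the floor on 3, 4 and 3 of the 6 arrays, against 3 for Itgb2 itself. With 6 arrays and so many candidates these correlations are descriptions.

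**Figure D4:**
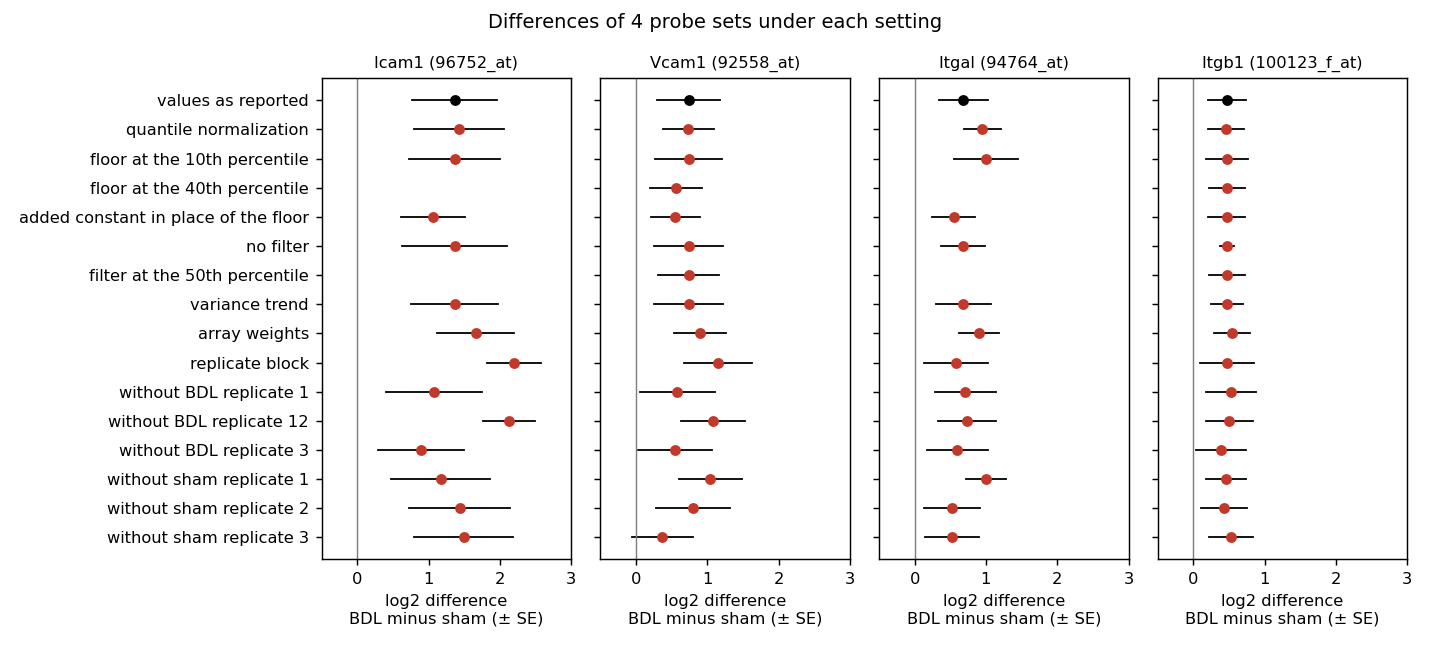
Log2 difference, BDL minus sham, with its SE for Icam1, Vcam1 92558_at, Itgal and Itgb1 100123_f_at as reported (black) and under each other setting (red); a setting under which a probe set was not tested has no point. All points lie above 0, and Icam1 reaches from 0.89 without BDL replicate 3 to 2.19 with the replicate number as a block.

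Other genes of leukocyte adhesion were read from 7 lists with 86 tested genes. Of these, 0 passed the adjusted threshold and 44 had a positive difference, with a median of 0.01. At an unadjusted p under 0.05 stood 5 that were higher and 4 that were lower in BDL, 10.5% in all. Over all 6892 genes, with 1 probe set each, 5.70% had an unadjusted p under 0.05, 49.2% were positive and the median was -0.01.

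Among other integrin chains, 0 of 6 alpha chains and 1 of 2 beta chains stood at an unadjusted p under 0.05. Itgb7, the beta chain of the gut-homing integrin, differed by -1.15 (SE 0.47, limma adjusted p = 0.832), with signals of 425, 176 and 657 in BDL and 882, 870 and 702 in sham mice. Itga4, the partner of Itgb1 in VLA-4, differed by -0.30 (SE 0.46) and by 0.23 without sham replicate 1, and Itgav, a chain of vitronectin receptors, by 0.44 (SE 0.33). The medians of the alpha and beta chain lists were -0.16 and -0.33, and neither sign was stable: the alpha chain median was 0.19 without sham replicate 1, and the beta chain median was 0.078 without BDL replicate 12 and 0.15 with the replicate number as a block.

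Of 9 tested selectins and selectin ligands, 5 were positive and 0 stood at an unadjusted p under 0.05. Madcam1, the ligand of the Itgb7 integrin, differed by -0.55 (SE 0.28) and Fut7, an enzyme that builds selectin ligands, by -0.86 (SE 0.38). For both every BDL mouse lay below every sham mouse. St3gal4, also of this list, differed by 0.59 (SE 0.33) with overlapping groups. For 1 other of the 9 genes the groups were apart with BDL higher. Over all tested probe sets 10.6% were apart in either direction. Of 15 other adhesion receptors, 6 were positive, and an unadjusted p under 0.05 was reached by 2 that were higher and 1 that was lower in BDL. Over all genes 5.70% reached it in either direction. The groups were apart for 1 that was higher, F11r, and for 4 that were lower, Icam5 among them. F11r, the junctional molecule JAM-A, had signals of 7383, 5771 and 12444 in BDL and 3842, 4322 and 4324 in sham mice, a difference of 0.96 (SE 0.35, limma adjusted p = 0.832). Icam5, a ligand of LFA-1 known from neurons, differed by -0.83 (SE 0.28), and Cdh5, the cadherin of endothelium, by 1.20 (SE 0.53) with overlapping groups.

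Of 22 tested integrin activators and adhesion site proteins, 11 were positive, and 3 had an unadjusted p under 0.05, 2 of them higher in BDL. Over all genes 5.70% had such a p in either direction. Msn, the membrane linker moesin, differed by 0.96 (SE 0.36), and Cyth1, a partner of the beta-2 integrin tail, by 0.94 (SE 0.38), both with all BDL signals above all sham signals. For 1 other of the 22 the groups were apart with BDL lower, beside 10.6% of all tested probe sets apart in either direction. Fgr, a Src family kinase of myeloid cells, differed by -1.03 (SE 0.40) with overlapping groups. Of 14 soluble and matrix ligands of integrins, 8 were positive and 1, Tnc, was lower at an unadjusted p under 0.05, by -0.69 (SE 0.30). All 3 BDL signals of Tnc were under the floor, so it passed the filter through its sham arrays alone. Its direction was thereby fixed, and its SE holds no spread of the BDL mice.

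Of 18 tested cytokines, receptors and NF-kB genes of the pathways that induce endothelial adhesion molecules, 12 were positive, and the median was 0.22. The list also holds inhibitors of NF-kB, with Nfkbia and Nfkbib among the positive genes and Nfkbie among the negative. Its count and median therefore do not describe inducers alone. Cd14, the co-receptor for endotoxin, had signals of 1873, 29692 and 15816 in BDL and 717, 4568 and 1176 in sham replicates 1, 2 and 3, a difference of 2.61 (SE 1.02, limma adjusted p = 0.832) with overlapping groups. BDL replicate 12, where Icam1 was low, was the highest array for Cd14. Irf1, an interferon response factor, differed by 1.24 (SE 0.75) and Tnfrsf1a, the TNF receptor, by 0.47 (SE 0.32). Without sham replicate 2 the Irf1 difference was 0.37, and without sham replicate 1 that of Tnfrsf1a was 0.26 and the median of the list 0.11. A further 6 genes of the list were on the array but too dim to test. Tnf and Il1b were among them, each above the floor on 2 of 6 arrays, so the median does not cover these cytokines. Ifng and Il6, also not tested, were at or under the floor on all 6 arrays.

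Markers of the leukocytes that carry the beta-2 integrins had differences of both signs. Of 13 tested neutrophil markers 6 were positive, with a median of -0.08; S100a9 differed by 1.49 (SE 0.59) and Chil3 by 1.41 (SE 0.48), against Elane at -0.74 (SE 0.39). Leaving out 1 array, S100a9 lay between 0.80 (without BDL replicate 3) and 2.07, and the list's median between -0.24 and 0.26 (without sham replicate 1). The summed signal of the list was 63956 to 111854 in BDL and 50717 to 70869 in sham livers, most of it from Lcn2, an acute-phase gene that hepatocytes are also known to express. Without Lcn2 the other markers summed to 8280, 6971 and 10848 in BDL and 13373, 8220 and 5716 in sham replicates 1, 2 and 3, so that the groups overlapped. The Kupffer cell and macrophage list had a median of 0.87, with 10 of 12 positive, beside 49.2% of all genes. At an unadjusted p under 0.05, 2 were higher, Ctss by 0.92 (SE 0.33) and Tyrobp by 1.10 (SE 0.47). Over all tested probe sets 3.4% were higher at that p. Of 8 tested lymphocyte and NK cell markers 2 were positive, with a median of -0.52, and their summed signal was 3319 to 3620 in BDL and 3234 to 9637 in sham livers, highest on sham replicate 1. Leaving out 1 array, the macrophage median was lowest at 0.51 (without sham replicate 3), and the lymphocyte median lay between -0.95 (sham replicate 3 left out) and -0.27 (sham replicate 1 left out). The part of these cells in the Itgal, Itgb2 and Itgam signals was not tested.

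**Figure D5:**
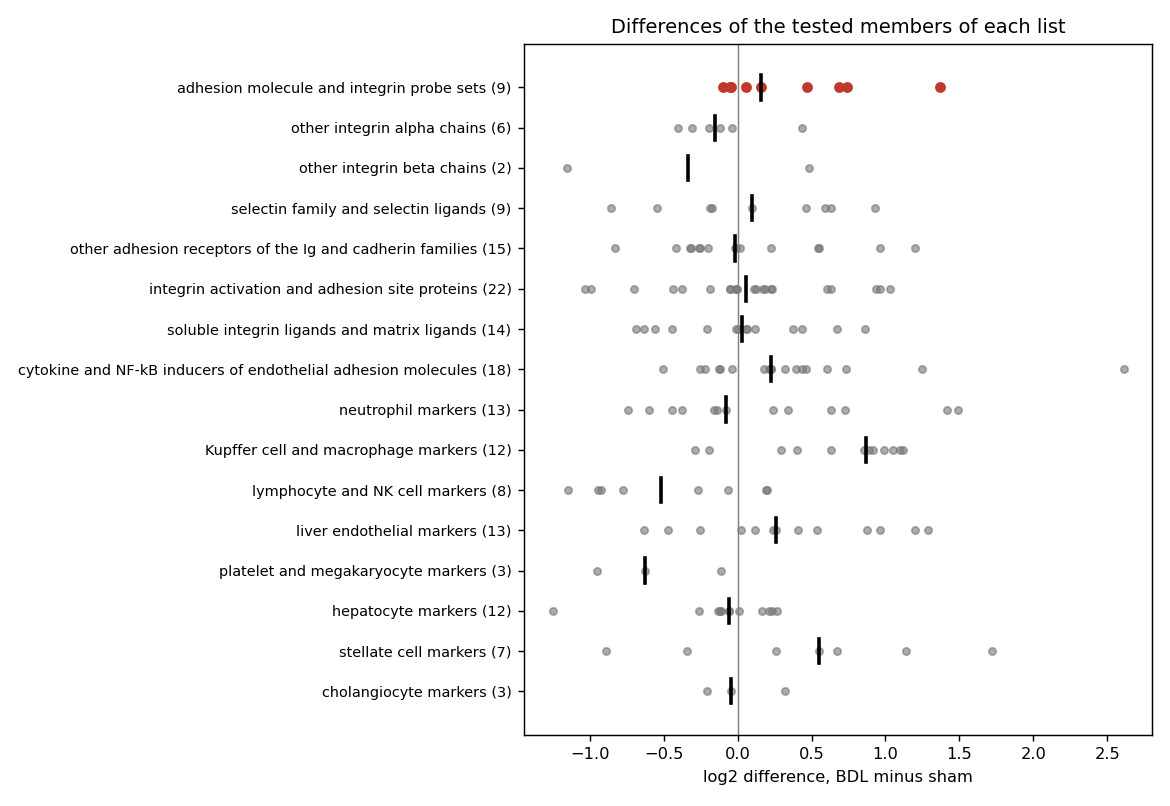
Log2 difference, BDL minus sham, of the 9 tested member probe sets (red) and of the tested genes of each list (grey, number tested in parentheses), with a black line at each median. The member median is 0.16, and those of the lists run from -0.63 for platelet to 0.87 for Kupffer cell and macrophage markers.

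Medians over the other marker lists were 0.26 for 13 liver endothelial, 0.55 for 7 stellate cell, -0.06 for 12 hepatocyte, -0.05 for 3 cholangiocyte and -0.63 for 3 platelet markers. Leaving out 1 array, the platelet median turned to 0.043 (without sham replicate 1), the hepatocyte median lay between -0.20 (sham replicate 1 left out) and 0.19 (sham replicate 3 left out), the cholangiocyte median between -0.29 (sham replicate 2 left out) and 0.19 (sham replicate 1 left out), the endothelial median between 0.071 (without BDL replicate 1) and 0.63 (without BDL replicate 12) and the stellate cell median between 0.22 and 0.78 for the same arrays. None of their members passed the adjusted threshold with limma. At an unadjusted p under 0.05 stood 2 endothelial and 2 stellate cell markers, higher in BDL, and 1 hepatocyte marker, lower in BDL. Over all tested probe sets 3.4% were higher at that p and 5.78% differed in either direction.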

How the data were processed

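Each array gave 1 deposited intensity per probe set, linear and above 0, from 20 µg cRNA. The authors made these values using MicroArray Suite (4.0) and the GeneChip analysis software (3.1), per the series' design text; their background and scaling settings are not stated there. Those deposited intensities were kept as scaled, since 2% trimmed means were within 5% of each other. From 12488 probe sets 66 controls were removed, and 2880 were too dim to test. Differences were tested with limma 3.58.1 in R 4.3.3 (lmFit, eBayes, no covariates, 4 residual and 4.67 prior degrees of freedom), adjusted by Benjamini-Hochberg over 9542 probe sets at 0.05. SE is limma's moderated SE, and the floor can shrink, enlarge or turn the difference of a dim gene. With the floor at the 10th percentile, Itgb2 moved from -0.10 to -0.04 and Itgam from -0.05 to 0.33. The fit was tested on simulated data.

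Symbols of the platform table were brought up to date through gene identifiers (RefSeq, GRCm38.p6), and a gene in a list was read from its brightest probe set. The text names all member probe sets and the 3 genes nearest to Icam1 and to Itgb2. Of each list it names up to 3 genes with the lowest unadjusted p, of which some are left out. A few more list genes are named to show limits of a list or an array. Alb was also used to check the tissue. The members and lists were chosen with earlier results of these data known. Other settings were quantile normalization, other floors and filters, an added constant, a variance trend, array weights, the replicate block and leaving out each array.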

Additional observations from a re-analysis of the deposited data

How the results depend on the processing

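Under 15 other settings no member probe set and no list gene passed the adjusted threshold with limma. Over all probe sets 3 passed without the filter, where 12422 were tested and none of the 3 was a member, and 0 passed under the other 14. Of 118 member differences under these settings, 105 kept their sign and 13 turned. Icam1 was not tested with the higher floor (40th percentile) or the stricter filter (50th percentile), since fewer than 3 arrays exceeded either. The count of member probe sets at an unadjusted p under 0.05 was 1 as reported. It was 0 with the lower (10th percentile) or higher floor, the stricter filter or a variance trend. With array weights it was 3 (Icam1, Vcam1 92558_at, Itgal). Leaving out 1 array, it was 2 without BDL replicate 12, 1 without sham replicate 1 and 0 without any of the other 4. The 1 without sham replicate 1 was Itgal, whose remaining sham values were both at the floor. The count with groups apart was 1 as reported, 3 after quantile normalization, and 1 to 3 leaving out 1 array. Over all probe sets 552 of 9542 tested stood at an unadjusted p under 0.05, 362 of 6338 with the stricter filter and 1023 of 9542 with array weights. Leaving out 1 array, the count lay between 300 of 9314 (without BDL replicate 3) and 1152 of 9393 (without sham replicate 3).

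The sign of Vcam1 92560_g_at turned to 0.0084 with the higher floor, 0.37 with array weights and 0.065 with the replicate block, and lay between -0.30 and 0.46 leaving out 1 array (0.31 without BDL replicate 12, 0.46 without sham replicate 1). Itgb2 turned to 0.21 after quantile normalization and 0.077 with array weights. Itgam turned to 0.24 after quantile normalization, 0.33 with the lower floor, 0.099 with an added constant and 0.082 with array weights, and lay between -0.27 and 0.29 leaving out 1 array (0.14 without BDL replicate 1, 0.29 without sham replicate 1). Among list genes, Itga4 turned to 0.0096 with array weights and lay between -0.59 and 0.23 leaving out 1 array, and Alb turned to -0.021 after quantile normalization. Of 37 list genes followed, 23 moved by over 1.5 times leaving out 1 array. The member median was 0.16 as reported, 0.0059 without the filter, over 12 probe sets, and 0.47 with the stricter filter, over only 3. The neutrophil median turned from -0.08 to 0.20 after quantile normalization, and the cholangiocyte median from -0.05 to 0.35 with array weights. The cause was not tested.

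With the replicate number as a block, Icam1 differed by 2.19 (limma adjusted p = 0.610) and 0 member probe sets passed. That fit rests on the 4 arrays numbered 1 and 3, the only numbers in both groups as labelled; whether the number 12 stands for 2 is not known. The deviations of same-numbered arrays correlated at 0.21 and 0.25 over probe sets. No label says that a number marks a shared litter, batch or day, and the 2 pairs do not settle whether the arrays are paired.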
